A study of Mus musculus with 2 samples.

Results

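The genes described here are named for the proteins of the cytosolic ribosome, which nearly all of them encode. Members were the probe sets with exactly 1 annotated gene symbol of the form Rpl or Rps with a number and at most 1 final letter a, l or x, plus Rplp0, Rplp1, Rplp2 and Rpsa, and the kinases named Rps6k were left out. The rule used no measured value, although it was proposed with earlier results of these data known. It found 100 probe sets of 46 genes, 24 of the large (60S) and 22 of the small (40S) subunit, among 18193 genes with such a probe set. RefSeq lists 45 of the 46 as protein-coding and Rps4l, counted here with the small subunit, as a transcribed pseudogene. Of the 100 probe sets, 83 were above the floor in both arrays, 2 in 1 array and 15 in neither, where the floor of an array was its 60th percentile of signal. On this basis 85 probe sets of 43 genes were measured, and the 3 genes without a measured probe set were Rpl3l, Rpl39l and Rps16.

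The study isolated uterine stromal cells on day 4 of pregnancy from mice labelled Hand2 Floxed, the controls, and from mice labelled Hand2-null, in which the floxed Hand2 gene was deleted with Cre expressed from the progesterone receptor locus (PRcre). Hand2 is a transcription factor of the uterine stroma that acts downstream of progesterone. The label of genetic background is the same for both groups and reads Prcre, C57BL/6, SV129 mixed background, so it does not by itself tell whether the controls carried the Cre. RNA was pooled by genotype and hybridized to 1 array per genotype. The series design gives 5 mice for each pool, whereas the description of RNA extraction gives 4. Epithelium was loosened with enzymes and discarded, and the remaining cells were allowed to attach before lysis, so the arrays hold attached cells and not intact tissue. With 1 array per group there is no replicate error, no test was made, and every comparison below is between these 2 arrays.

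A ribosome carries about equal numbers of each of its proteins, and their mRNAs are among the most abundant of a growing cell. Most of these mRNAs begin with a C followed by an unbroken run of pyrimidines, the terminal oligopyrimidine (TOP) motif, through which mTOR signalling and the RNA-binding protein LARP1 regulate their translation and stability. Cells make the proteins in step with ribosomal RNA, which is transcribed by RNA polymerase I under the influence of MYC, and progesterone-dependent stromal proliferation around implantation draws on this machinery.

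RefSeq start sites of the GRCm38.p6 assembly were available for 40 of the 46 genes, in 48 windows. The following windows show 20 bases before and 20 bases from the annotated first transcribed base onward, read 5′ to 3′ on the gene's strand, with capitals for the stretch that was counted, from the first C within 5 bases of the start to the end of the pyrimidines. Lower-case pyrimidines just before the capitals, as in Rpl14, Rpl35 and Rpl38, continue the same run upstream. The windows shown belong to genes whose values are described below. Rpl14 and Rps6 had the lowest ratios, Rplp2 and Rpl38 were among the brightest, and Rpl35 and Rps10 had many probe sets. Rpl3l, a paralog of Rpl3 found mainly in striated muscle, was below the floor and has no run at either of its annotated starts. All measured genes shown have the run within 5 bases, but only 16 of the 40 genes do. Among genes not shown, Rpl37, also among the lowest ratios, and the bright Rplp0 and Rps4x have none within 25 bases.
Rpl14, chr9:120571497-120571536, plus strand: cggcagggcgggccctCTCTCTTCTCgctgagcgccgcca
Rps6, chr4:86857348-86857387, minus strand: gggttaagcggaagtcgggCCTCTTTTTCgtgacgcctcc
Rplp2, chr7:141447631-141447670, plus strand: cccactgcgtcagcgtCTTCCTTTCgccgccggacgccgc
Rpl38, chr11:114668560-114668599, plus strand: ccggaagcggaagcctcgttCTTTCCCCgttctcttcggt
Rpl35, chr2:39005112-39005151, minus strand: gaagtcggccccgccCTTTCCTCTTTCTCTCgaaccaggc
Rps10, chr17:27635225-27635264, minus strand: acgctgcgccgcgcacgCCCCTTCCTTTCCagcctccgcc
Rpl3l, chr17:24727806-24727845, plus strand: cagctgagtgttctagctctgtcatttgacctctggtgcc

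A run of at least 6 C or T letters that began with C within 5 bases of the start was present in 16 of the 40 genes (40%), against 11.9% of all 27025 genes in the table. Annotated starts can lie some bases from the start that cells use most, and within 25 bases, a distance chosen after the sequences were seen, the run was present in 30 genes (75%) against 41.2%. In the window from 250 bases before to 50 bases after the start, on either strand, CCGGAAG was present in 20 genes (50%) against 9.93%, and GGGCGG in 22 (55%) against 38.2%. AAGATGGC was found in 3 genes (7.5%) against 3.19%, and TATAAA in 5 (12.5%) against 15.7%. These are matches of letters and were not tested as sites. The array ratios did not separate by the run: the median log2 ratio was -0.13 over the 16 genes with a run within 5 bases, of which 14 were lower in Hand2-null cells, and -0.15 over 21 measured genes without one, of which 20 were lower.

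Ribosomal protein transcripts gave slightly lower signals in Hand2-null than in control stromal cells, and did so nearly across the family. Of 85 measured probe sets, 77 were lower and 8 were higher in Hand2-null cells on the floored scale, against 53.1% lower over all 18919 measured probe sets. The median log2 ratio (Hand2-null minus control) was -0.15, a 1.11-fold lower signal, with an interquartile range of 0.10. Over all measured probe sets the median was -0.02 with an interquartile range of 0.38, so the family sat in a narrow band to the lower side of the centre. With the brightest probe set standing for each gene, 39 of 43 genes were lower, against 55.3% of all 10376 measured genes, and the median was -0.14 against -0.03 for all genes. Every measured probe set was lower in 35 genes, the probe sets disagreed in direction in 4, and all were higher in 4. One of the 8 higher probe sets, of Rps20, is higher only because the floors of the arrays differ, and without it 77 of 84 were lower and 7 higher, with Rps20 no longer among the 4 genes of mixed direction.

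**Figure D1:**
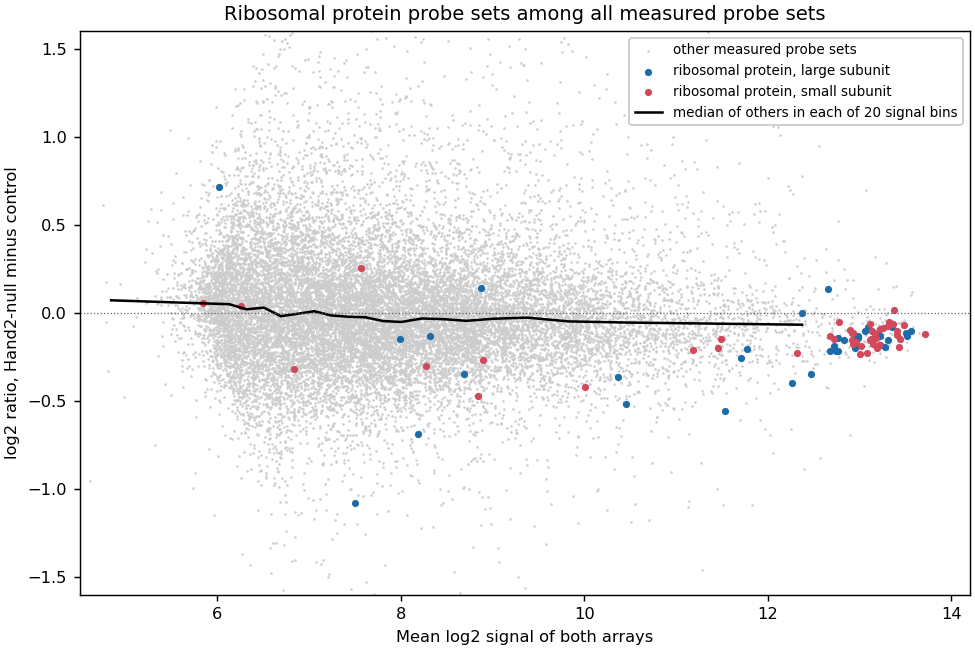
Each point is a measured probe set, with the mean log2 signal of both arrays on the horizontal axis and the log2 ratio (Hand2-null minus control) on the vertical axis, and values of other probe sets beyond the axis are not drawn. The large and small subunit probe sets (blue and red) gather at the bright end just below 0, under the line of the median of other probe sets in 20 signal bins.

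The size of the difference was small for any one probe set. Only 14 of the 85 were at or below -0.25 on the log2 scale, a 1.19-fold difference, against a background of 19% of all measured probe sets, and 2 were at or above 0.25 against 19.4%. By gene, 5 of 43 were at or below -0.25 against 20%, and 2 at or above 0.25 against 17.6%. A single probe set, of Rpl37a, was 2-fold lower, against 0.629% of all probe sets, and none was 2-fold higher, against 1.88%. These counts differed with signal. In the brightest of 20 equal bins of signal, 4 of 68 members were at or below -0.25, against 120 of 878 other probe sets (13.7%). Below that bin it was 10 of 17 members, against 3455 of 17956 other probe sets (19.2%).

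The scaling of the arrays bears directly on a shift of this size. The deposited signals had been scaled to the same trimmed mean of 150.001 in both arrays. Quantile normalization moved the median of the members to -0.06 against -0.03 for all probe sets, with 67 of 85 lower, and the median of the member genes and that of all genes were then both -0.04. A loess fit on signal gave -0.07 against 0.00. Ribosomal probe sets themselves dominate the bright end to which both methods adapt: of 129 probe sets with a mean signal of at least 8192, 37 were members and 56 others listed a ribosomal protein gene together with other genes, 72.1% in all. When every ribosomal probe set was left out of the fit, an alternative added after seeing the data, quantile normalization gave -0.13 with 79 lower and loess gave -0.10 with 77 lower. Single bright genes changed direction with these methods: Rpl22, Rps2 and Rps14 were above 0 under quantile normalization, and Rps20, Rpl41, Rplp0, Rps28 and Rps14 under loess, none by more than 0.04. Rps27, just above 0 as deposited, was at -0.01 under quantile normalization. Of the bacterial and phage control transcripts added at hybridization, 5 probe sets with a mean signal above 4096 had ratios between -0.01 and 0.03. They are added after the RNA is labelled and do not report how much RNA each cell held.

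**Figure D2:**
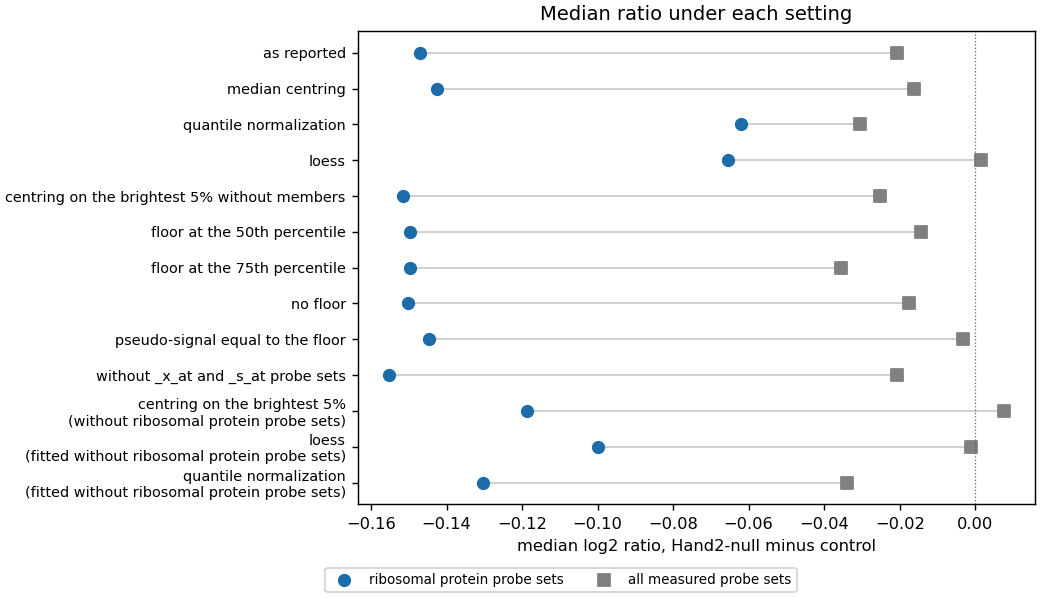
Median log2 ratio (Hand2-null minus control) of the ribosomal protein probe sets (circles) and of all measured probe sets (squares) for each way of scaling or filtering, one per row. The members lie to the left of all probe sets in every row, with the smallest gaps under quantile normalization (-0.06 against -0.03) and loess (-0.07 against 0.00).

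The members were bright, so probe sets of like signal are the nearer comparison. The brightest of 20 equal bins, with a mean signal of at least 1974, held 68 members, of which 65 were lower, with a median of -0.14 and an interquartile range of 0.09. The 878 other probe sets of that bin were lower in 66.2%, with a median of -0.07 and an interquartile range of 0.24. Without the probe sets that list a ribosomal protein gene among several, 799 remained, 63.1% of them lower with a median of -0.05. At a mean signal of at least 8192, 36 of 37 members were lower with a median of -0.12, while 24 of 36 other probe sets were lower with a median of -0.06. Between 4096 and 8192, 25 members had a median of -0.15 against -0.04 for 183 others. Among dimmer probe sets the members spread out. Between 256 and 4096, 15 of 16 members were lower with a median of -0.28 against -0.04 for 7674 others, and under 256 only 3 of 7 members were lower with a median of 0.04. All 33 genes whose brightest probe set had a mean signal above 4096 were lower as deposited, between -0.21 and -0.05, while 27 of them were lower under quantile normalization and 28 under loess. The 10 genes under that level ran from -0.69 to 0.72, and all 5 genes at or below -0.25 and all 4 higher genes were among them.

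Both subunits had similar medians. The 22 measured large subunit genes had a median log2 ratio of -0.15, with 20 lower, and the 21 small subunit genes had -0.13, with 19 lower. At probe set level both medians were -0.15, over 40 and 45 probe sets. Among genes above a mean signal of 4096, 17 of 17 large subunit genes were lower as deposited with a median of -0.15 and 16 of 16 small subunit genes with a median of -0.12. The difference of these medians is well within the interquartile range of either subunit, 0.09 and 0.08 over all measured genes.

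**Figure D3:**
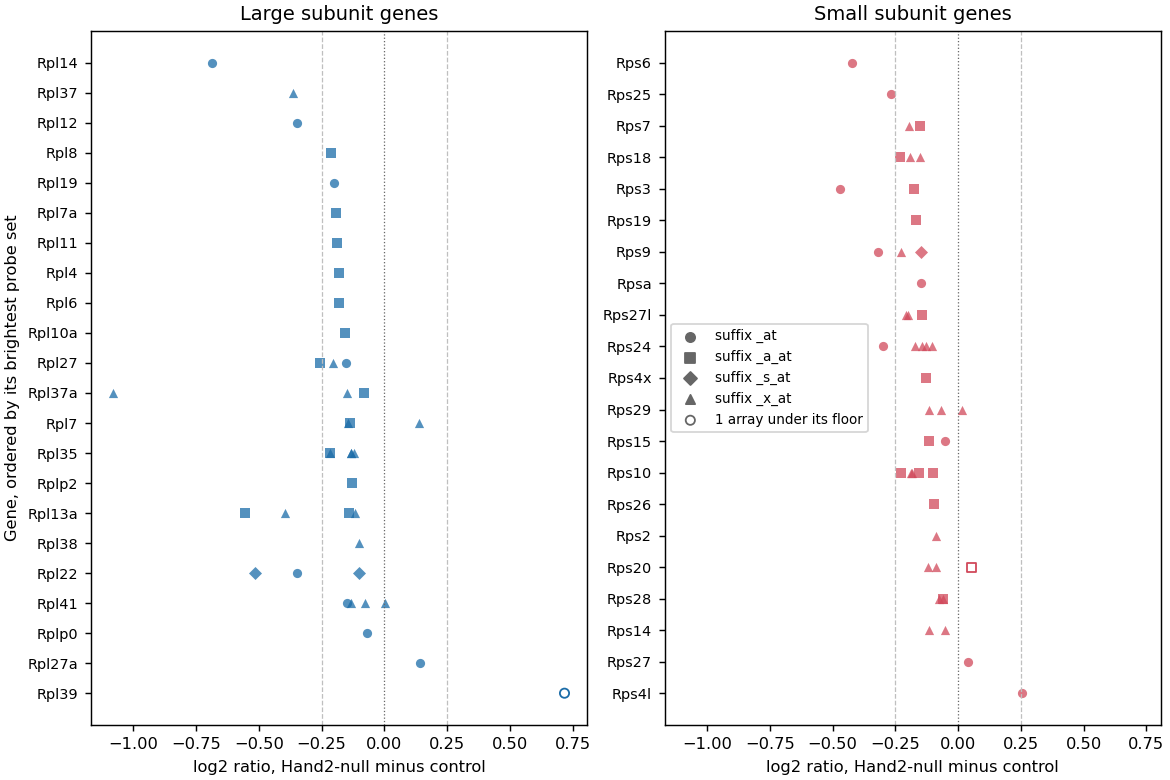
Log2 ratio (Hand2-null minus control, horizontal axis) of every measured probe set of each gene (rows, ordered by the ratio of the brightest probe set), with the marker shape giving the probe set suffix, open markers where 1 array was under its floor, and dashed lines at -0.25 and 0.25. Most genes lie between -0.25 and 0, and the widest scatter within a gene is that of Rpl37a.

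In the large subunit, the 3 measured genes of the P stalk, which recruits elongation factors to the ribosome, were lower as deposited. Rplp0 was at 0.02 under loess. Rplp0, the stalk's base, had a signal of 10707 in control and 10207 in Hand2-null cells, a log2 ratio of -0.07. Rplp2, an acidic stalk protein, had 12253 and 11208 (-0.13). Rpl12, which anchors the stalk, had 466 and 367 on its single dim probe set (-0.35). Brighter probe sets that list Rpl12 with other genes, and cannot be assigned to it alone, were at -0.25 and -0.14. The median of the 3 genes was -0.13, and Rplp1 had no probe set of its own.

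Rpl11 forms the 5S particle with Rpl5 and 5S RNA, which binds the p53 regulator MDM2 when ribosome assembly fails. Its signal was 7219 in control and 6329 in Hand2-null cells, a log2 ratio of -0.19. Around the tunnel through which the new protein chain leaves the ribosome, 4 of 5 measured genes were lower as deposited, with a median of -0.13, and 3 of 5 under quantile normalization. Rpl4, whose loop lines the tunnel, had 10201 and 8994 (-0.18). Rpl19 had 8516 and 7410.4 (-0.20), and Rpl35, a docking site for factors at the tunnel exit, had 10012 and 9138 (-0.13). The exception was Rpl39, a very small protein of the tunnel wall, whose only probe set had 40.0025 in control cells, under the floor, and 106 in Hand2-null cells, a log2 difference of at least 0.72. A signal near the floor gives the least certain ratio of the array, and Rpl39 has no second probe set of its own. A bright probe set that lists Rpl39 together with other genes was also higher, with 10212 and 11352 (0.15), and cannot be assigned to one of them.

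Further large subunit genes with bright probe sets kept close together. Rpl8, near the catalytic centre of the subunit, had 7497 in control and 6463 in Hand2-null cells (-0.21), the lowest ratio among the bright genes. Rpl7a had 10652 and 9323 (-0.19), Rpl10a had 9457 and 8489.7 (-0.16), and Rpl6 had 8446 and 7448 (-0.18). Rpl38, which in mouse embryos is needed for translation of Hox mRNAs, had 12566 and 11708 (-0.10). All of these genes were lower, in a range from -0.21 to -0.10.

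The lowest ratios of the large subunit came from single probe sets with a mean signal under 4096. These were dim beside most members but above the floor in both arrays. Rpl14 had a signal of 370.3 in control and 230.0 in Hand2-null cells, a log2 ratio of -0.69 and the lowest of the 43 genes. Rpl37 had 1497 and 1164 (-0.36). In the other direction, Rpl27a had 448 and 494 (0.14). Each of these genes was represented by 1 measured probe set of its own. Their brighter signals come from probe sets that the annotation assigns to several genes at once and that cannot be given to one of them. For the 5 genes at or below -0.25, the 18 such probe sets that list one of them were lower in 17, with a median of -0.14 and a range from -0.38 to 0.11. For the 4 higher genes there were 3 such probe sets, of which 2 were lower. The larger ratios of the dim probe sets were therefore not repeated at that size by most of the shared ones.

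In the small subunit, all 9 measured genes of the head, the part that holds the incoming tRNA and mRNA, were lower as deposited, with a median of -0.12, while 6 were lower under quantile normalization and 7 under loess. Rps3, which forms the mRNA entry channel and also acts in DNA repair, had 8269 in control and 7319 in Hand2-null cells (-0.18). Rps18 had 11799.6 and 10323 (-0.19), Rps10 had 11243 and 10481 (-0.10), and Rps15 had 8118 and 7491 (-0.12). Rps29, the brightest member, had 14009 and 12922 (-0.12), and Rps28 had 10803 and 10356 (-0.06). Rps25, a protein used by viral internal ribosome entry sites, had 522 and 433 on its single dim probe set (-0.27).

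Of 10 measured genes of the body of the small subunit, 9 were lower as deposited, with a median of -0.14, and 8 under quantile normalization or loess. Rps6, the substrate of the S6 kinases downstream of mTOR, had the lowest ratio, with 1191 in control and 889 in Hand2-null cells (-0.42). Its second probe set of its own was under the floor in both arrays. Probe sets that list Rps6 with other genes, and cannot be assigned to it alone, ranged from -0.38 to 0.11. The brightest of them had 10074 and 9817 (-0.04), and others of like signal were at -0.14, -0.14 and -0.11. Rpsa, also known as the laminin receptor, had 11714 and 10586 (-0.15), and Rps7 had 10003 and 8724 (-0.20). Rps4x, the X-linked copy of Rps4, had 11378 and 10417 (-0.13), Rps2 had 9860.3 and 9268 (-0.09), and Rps26 had 7875 and 7361 (-0.10). Rps14 had 10391 and 10011 (-0.05), the smallest difference among bright genes. The exception was Rps27, with 75.8 and 77.8 just above the floor (0.04).

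Genes mutated in Diamond-Blackfan anaemia, an inherited failure of red cell production, are spread over both subunits. A chosen list of 9 of them was used, which is not complete, so the count and range below hold for this list only. Of these 9, 6 were measured (Rpl11, Rps7, Rps10, Rps19, Rps24 and Rps26) and all 6 were lower, between -0.20 and -0.10, with a median of -0.15. Rps19, the gene most often mutated, had 8432 in control and 7510.4 in Hand2-null cells (-0.17). Their median was close to the -0.14 of all member genes.

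The paralogs fell into different places. Rps27l, a p53-inducible copy of Rps27, had 3035 in control and 2743 in Hand2-null cells on its brightest probe set (-0.15), and its 3 probe sets lay between -0.21 and -0.15. Rps4l, which RefSeq lists as a transcribed pseudogene, had 173 and 206 (0.25). The 2 copies with tissue-restricted expression were under the floor in both arrays: Rpl3l had 15.2 and 10.1, and Rpl39l, known from testis, had 11.8 and 7.91. Rps16 was also under the floor, with 0.311 and 0.252 on the only probe set that lists it alone. Probe sets that list Rps16 with other genes, and cannot be assigned to it alone, were bright. They had 10316 and 8821 (-0.23), and 10718 and 9890 (-0.12). A value under the floor does not show that the transcript was missing.

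Of the 46 genes, 23 had 1 probe set and the others up to 6, so the same transcript was often measured more than once. In 19 genes at least 2 probe sets were above the floor in both arrays, and the pooled standard deviation of their ratios within a gene was 0.16. It was 0.19 over 3646 other genes. This spread does not include variation between mice.

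Within a gene, the dimmer probe sets more often had the lower ratio. In 14 of the 19 genes the dimmest probe set had a lower ratio than the brightest, with a median difference of -0.06 and a range from -0.93 to 0.28. Among other genes the dimmest was lower than the brightest in 48.4%. In the 6 member genes whose probe sets differed at least 4-fold in signal, it was lower in 6, with a median difference of -0.23. Among 44 other genes with a bright probe set and a 4-fold gap, it was lower in 21, with a median difference of 0.03. What sets the ratio of the dim probe sets was not tested.

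Rpl37a showed the widest gap. Its dim _x_at probe set had 262 in control and 124 in Hand2-null cells (-1.08), while its bright probe sets had 8957 and 8461 (-0.08), and 10679 and 9618 (-0.15). Rpl13a, which can leave the ribosome to silence inflammatory mRNAs, had 4 probe sets whose ratios ordered with signal: 3584 and 2436 (-0.56), 5646 and 4287 (-0.40), 7297 and 6622 (-0.14), and 12149.7 and 11216 (-0.12). Rpl22, a ribosomal protein with a role in lymphocyte development, had 1684 and 1178 (-0.52), 6396 and 5029 (-0.35), and 8833 and 8240.0 (-0.10). The brightest probe sets of these 3 genes thus lie near the family's median, and their dimmer ones carry most of the large differences.

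Rps3 had a dim probe set with 540.2 in control and 389 in Hand2-null cells (-0.47), beside its bright one at -0.18. Rps24 had 342 and 278 (-0.30) on its dimmest measured probe set and between -0.17 and -0.10 on 4 bright ones. Rps9, a small subunit body protein that binds ribosomal RNA early in assembly, had 128 and 102 (-0.32), with -0.15 on its brightest. Rpl7 ran the other way: its dimmest probe set had 6178 and 6796 (0.14), while the others had 8374 and 7623 (-0.14), and 8531 and 7724 (-0.14). Rpl41, which encodes a very short peptide, had 4 probe sets between -0.15 and 0.00. The dimmest pair had the lowest ratios, -0.15 and -0.13, and the pair above had 5290.2 and 5293 (0.00), and 10764 and 10193 (-0.08). Rps29 had one probe set at 10552 and 10665 (0.02) beside the lower ratios of its other probe sets. Rps20 had a probe set with 65.0 in control cells and 50.6, under the floor, in Hand2-null cells. Its ratio is 0.05 on the floored scale, where the counts place it among the higher probe sets, and -0.36 without the floor.

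**Figure D4:**
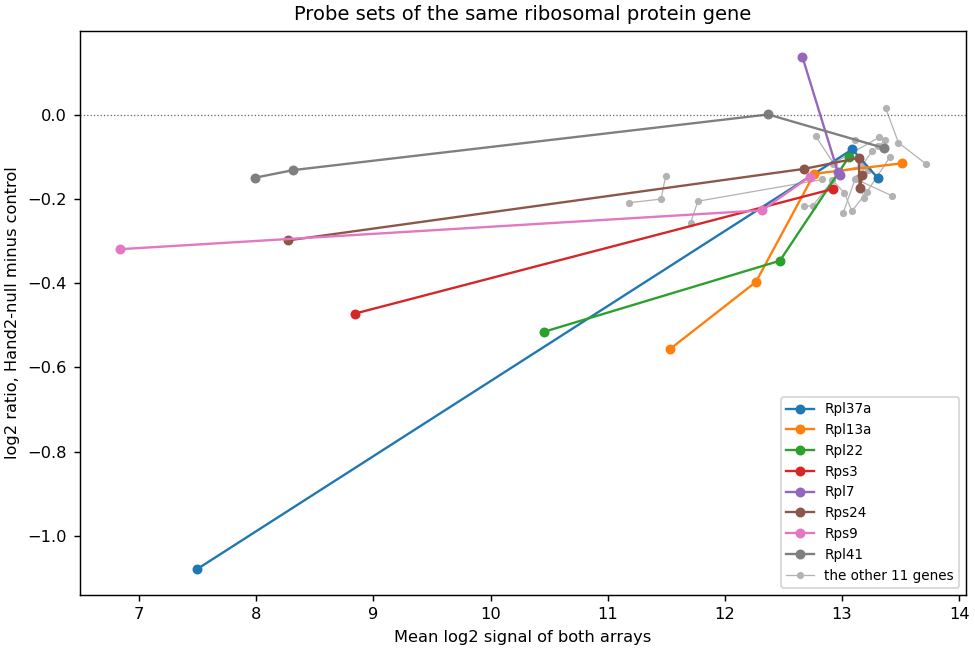
Probe sets of the 19 genes with at least 2 above the floor in both arrays, joined within a gene, with the mean log2 signal of both arrays on the horizontal axis and the log2 ratio (Hand2-null minus control) on the vertical axis. In Rpl37a, Rpl13a, Rpl22 and Rps3 the dim probe sets lie below the bright ones, and Rpl7 runs the other way.

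The suffix of a probe set records how specific its probes were judged at design: _at for a single transcript, _a_at for variants of a gene, and _s_at and _x_at for probes that can match other transcripts. Ribosomal protein genes have many processed pseudogenes with near-identical sequence. Of the 100 member probe sets, 40 were _x_at, 3 _s_at, 26 _a_at and 31 _at. Among measured probe sets, 38 of 85 members were _x_at, against 1284 of 18834 others. The _s_at suffix was not richer, with 3 of 85 members against 1451 of 18834 others. What sets these shares was not tested. Of the _x_at probe sets, 35 of 38 measured were lower with a median of -0.13, against 60.4% lower and a median of -0.06 for other _x_at probe sets. Of the _a_at probe sets, 25 of 26 were lower with a median of -0.16, and all 3 _s_at probe sets were lower with a median of -0.15. The _at probe sets were dim, with a median control signal of 128, and 13 of the 31 were under the floor in both arrays. Of the 18 measured, 14 were lower with a median of -0.18. With _x_at and _s_at probe sets left out, 39 of 44 were lower with a median of -0.16, so the direction did not rest on the less specific suffixes.

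A further 110 probe sets list a ribosomal protein gene together with other genes, and they are no members. They cover 43 ribosomal symbols, of which 28, among them Rpl3, Rpl5 and Rplp1, have no probe set of their own. Of 98 measured, 93 were lower and 5 higher, with a median of -0.15 and a range from -0.90 to 0.16. Members and these probe sets together made up 12.5% of the summed signal of the control array and 11.5% of that of the Hand2-null array.

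Genes that work with the ribosome were described from lists chosen with earlier results of these data known, each beside the median of -0.03 and the 55.3% lower over all measured genes. Mitochondrial ribosomal proteins, which build the separate ribosome of the mitochondrion, were lower in 69 of 76 genes with a median of -0.19. Mrpl40 had 352 in control and 227 in Hand2-null cells (-0.63), and Mrpl50 had 214 and 139.9 (-0.62). Elongation factors and other mRNAs of the TOP class were lower in 16 of 16, with a median of -0.24. Among them, Npm1, a nucleolar chaperone of ribosome assembly, had 7360.3 and 5504 (-0.42), and Nap1l1, a histone chaperone, had 2411 and 1659.9 (-0.54). Initiation factors were lower in 20 of 27 with a median of -0.11, led by Eif3m with 1026 and 768 (-0.42).

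Among the genes that build ribosomes, biogenesis factors were lower in 39 of 43 with a median of -0.29, and 25 were at or below -0.25, against 20% of all measured genes. The named ones are dimmer than most members, and the 16 members between 256 and 4096 had a median of -0.28, so these medians give no order between the lists. Wdr12, a partner of Pes1 and Bop1 in large subunit maturation, had 239 in control and 142 in Hand2-null cells (-0.75). Utp15, of the small subunit processome, had 202 and 123 (-0.72), and Dkc1, the pseudouridine synthase, had 723 and 496 (-0.54). RNA polymerase I subunits and their factors were lower in 15 of 18 with a median of -0.24. Myc, an activator of ribosome production, had 776 and 475 (-0.71), while its relative Mycn had 67.1 and 159 (1.24). The control signal of Mycn lies just above that array's floor of 64.2, so its ratio is among the less certain. The S6 kinases and the mTOR pathway were mixed, with 12 of 19 lower and a median of -0.09, from Rps6ka5 with 205 and 119 (-0.78) to Deptor, an mTOR inhibitor, with 180.3 and 249.5 (0.47). Whether these lists differ from the ribosomal proteins beyond replicate error could not be tested with 1 array per group.

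**Figure D5:**
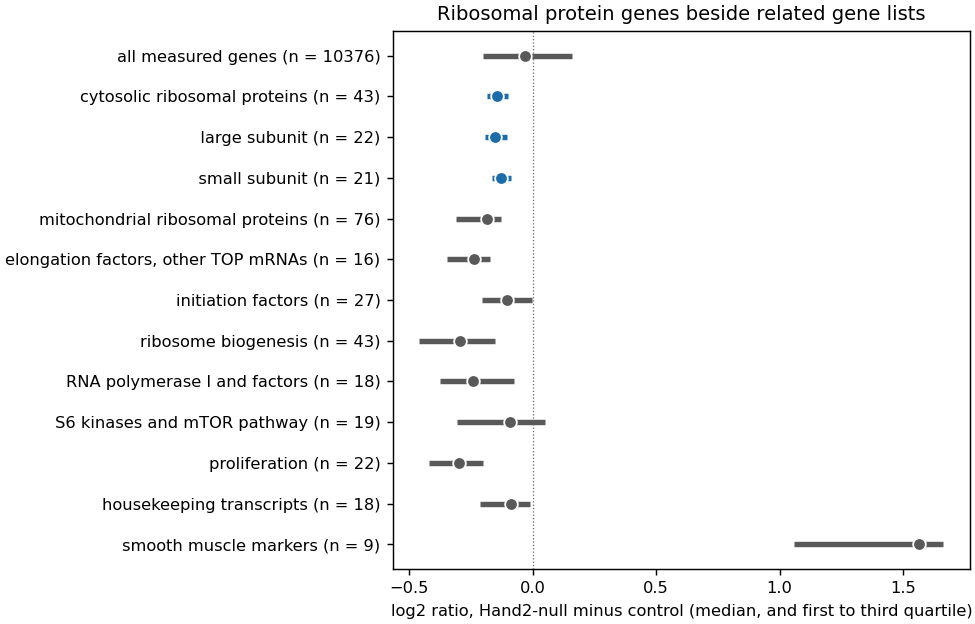
Median log2 ratio (points) and interquartile range (bars) of each list of genes, Hand2-null minus control, with the number of measured genes in brackets. Ribosomal proteins (blue) form the narrowest bars around -0.14, biogenesis and proliferation genes lie near -0.29 and -0.30, and smooth muscle markers lie at 1.56.

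Genes related to the members by name or product, but outside the naming rule, were lower as well. Rpl22l1, the paralog of Rpl22, had 6405 in control and 5082 in Hand2-null cells (-0.33). Fau, whose product contains the small subunit protein Rps30, had 8115 and 7253 (-0.16). The list also held Rpl7l1 (-0.23), Rsl24d1 (-0.14) and Rps19bp1 (-0.08), so it was not restricted to proteins of the ribosome. All 5 measured genes of the list were lower, with a median of -0.16. Reference transcripts often used for normalization were lower in 14 of 18 with a median of -0.09, which lies between the median of all genes and that of the members.

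The arrays differed in more than Hand2, whose signal was 1545 in control and 38.5, under the floor, in Hand2-null cells. Proliferation genes were lower in 22 of 22, with a median of -0.30, as in Cdk1 with 427 and 295 (-0.53). All 9 smooth muscle markers were higher, with a median of 1.56 and a summed signal of 16806 in control and 37037 in Hand2-null cells. Of 11 stromal markers 8 were lower (median -0.21, summed signal 35631 and 33809). The deleted Hand2 is itself one of these 8, and its own fall is nearly as large as that of the sum. All 5 endothelial markers were lower (median -0.33, 2235 and 1598). Epithelial markers were higher in 6 of 8 (median 0.18, 6498 and 7959), and mesothelial markers in 4 of 5 (median 0.78, 865 and 1139). Only 2 of the 5 mesothelial markers were above the floor in both arrays, and their median is the floored ratio of Lrrn4. Leukocyte markers were lower in 3 of 6 (median 0.04, 4415 and 4706) with Cd3e under the floor, neither erythroid marker on the array was measured, and immediate-early genes were higher in 8 of 9 (median 0.49, 25397 and 32378). The part of the cell mixture, of proliferation and of cell handling in the ribosomal protein shift was not tested. In pooled bulk RNA, fewer cells of a type and less RNA per cell cannot be told apart.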

How the data were processed

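Labelled RNA of 2 pools was measured on 1 Affymetrix mouse array each. Per the submitters' processing notes, the authors used Affymetrix Expression Console, version 1, and its MAS5 algorithm, and they deposited the resulting signal, a linear array intensity. The series matrix held 45101 probe sets, of which 64 controls were left out and 34945 had 1 annotated gene. All 46 member symbols matched RefSeq (GRCm38.p6). Signals under each array's 60th percentile (64.2 in control, 67.5 in Hand2-null) were set to it before the log2 ratio was taken, and a gene was represented by its brightest probe set (highest mean over both arrays). A probe set was measured when at least 1 array reached the floor. The members and lists were chosen with earlier results of these data known. Named genes were the 10 lowest, the 10 highest, the 6 brightest and the 4 dimmest genes above the floor in both arrays, the 6 with the widest disagreement among probe sets, genes listed by name (Rps27a and Rpl10l were not analysed here), role groups, and up to 4 of each related list. The number of arrays limits the precision, and no test was made. Ratios were computed with Python 3.11.15, numpy 2.4.6, pandas 2.3.3 and statsmodels 0.14.6, and the counting was tested on simulated data with 200 altered probe sets. Alternatives changed the scaling, the floor, the threshold, the rule of 1 probe set per gene and the suffixes.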

Additional observations from a re-analysis of the deposited data

How the results depend on the processing

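No paired analysis was possible because each group has 1 array, and for the same reason no replicate could be left out. The planned comparison of protein sequences was not run. The median ratio of the members stayed below 0 under every scaling, floor and filter tried, from -0.06 under quantile normalization to -0.16 without _x_at and _s_at probe sets, which left 39 lower of 44. Counts past a threshold depended on the setting. The 14 probe sets at or below -0.25 became 22 with no floor, 2 at 1.5-fold, 1 at 2-fold and 2 without members under a mean signal of 4096. The 2 at or above 0.25 became 1 under quantile normalization, under centring on the brightest 5%, with the floor at the 75th percentile, with a pseudo-signal, at 1.5-fold, and under quantile normalization fitted without ribosomal probe sets. They became 6 with no floor, 0 at 2-fold and 0 without members under 4096. The gap to other probe sets of the brightest bin was -0.08 as reported and -0.01 under quantile normalization. The gene rule mattered for Rpl13a, Rpl22 and Rpl37a, whose mean over probe sets was -0.30, -0.32 and -0.44, and Rpl22 was -0.35 without _x_at and _s_at probe sets. The cause of these changes was not tested. Of 436 values of 30 named genes under the alternatives, 431 moved by less than 0.16, the spread of probe sets within a gene. That spread is as large as the family's median shift of -0.15, so a value within it need not have kept its shift. Rpl13a, for example, went from -0.12 to -0.01 under quantile normalization. Of the 436, 11 had the opposite sign, in 8 genes and by no more than 0.05 from 0, with 4 under quantile normalization and 5 under loess. None of these genes had been at or past 0.25 in size.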
